A study of Mus musculus with 22 samples.

Results

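Back skin was 1 of 22 mouse poly(A) RNA-Seq libraries made from cells and tissues, and it was the only skin library. Its transcript levels were set against each of the other 21 libraries. These were 3 brain regions labelled Putamen, Medulla Oblongata and Sensorimotor Cortex, 8 B cell libraries, 9 CD4 T cell libraries and basophils. The B cell libraries were resting splenic B cells, CH12 B cells clone bc5 (a B lymphoma line) and 6 activated cultures. The cultures had aBCD180, LPS+a-d-dextran, LPS alone, aCD40+IL4, LPS+IL21 or LPS+IL4. The CD4 T cell libraries were CD4+ T cells, CD4+ T cells (ConA-activated), Tfhs, Tfrs and activated non-Tfh T cells, of which 4 had a partner labelled MUT or Mut with the mutation not named. No strain, age, sex or stage of the hair cycle is named for the skin, and each group was a single library. A difference from back skin therefore has no replicate check, and no p-value is given.

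A gene was called higher in back skin when its log2(TPM + 1) exceeded that of every one of the 21 libraries by at least 3 and its level was at least 10 TPM. TPM (transcript abundance per length, scaled to the same total in each library) is a relative level, and a difference of 3 is 8-fold on the TPM + 1 scale. By this rule 541 of 20674 protein_coding genes, or 2.62%, were higher in back skin. The mirror rule, with every other library at 10 TPM or more, gave 6 genes, or 0.029%, that were lower. Among the 541 genes, 256 belonged to 48 gene lists and 285 did not. The lists held 940 of the 20674 genes. Most were sorted by skin compartment, and others covered signalling, proliferation, erythroid genes and liver and intestine.

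Skin is a layered organ. Its epidermis is made by basal keratinocytes that leave the basement membrane, switch from 1 pair of keratins to another and end as cross-linked cornified cells that seal the surface. Hair follicles grow down from the epidermis. In the growth phase their matrix cells build a shaft of hair keratins embedded in keratin-associated proteins, wrapped in an inner and an outer root sheath. Below lie the collagen-rich dermis, a fat layer and, in rodents, the panniculus carnosus, a thin sheet of skeletal muscle. Sebaceous glands, vessels, nerves and resident immune cells complete the tissue.

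The label was checked against defining markers. Back skin held 2933 TPM of Krt5 and 2747 TPM of Krt14, the basal keratin pair, and 82.2 TPM of Trp63, the master regulator of stratified epithelium. Suprabasal Krt10 was at 867.6 TPM and Lor (loricrin) at 773.8 TPM. The hair keratin Krt85 was at 1194 TPM, dermal Col1a1 at 641.6 TPM, skeletal muscle Acta1 at 1847 TPM and the adipocyte gene Adipoq at 198.6 TPM. The T cell marker Cd3e was at 0.93 TPM and the neuron marker Rbfox3 at 0.25 TPM, and Snap25 was listed at 0. The 11 genes of the erythroid list summed to 594.97 TPM. Flg (filaggrin) was not analysed here. In bulk tissue, fewer cells of a type and less RNA per cell cannot be told apart.

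The back skin file summed to 43.88 M expected counts over protein_coding genes, within the range of 30.81 to 147.9 M of the other libraries. It had the highest count of genes that it alone held. In back skin 284 genes had at least 10 TPM and were under 1 TPM in each of the 21 others, against 33 in basophils, the next highest library. Back skin and basophils had no other library of their tissue or lineage in the series, while brain, B cell and CD4 T cell libraries did. A gene shared with such a library could not count, so the numbers are not comparable across all libraries. Over 10790 expressed genes, the median difference between back skin and the median of the other libraries was -0.68 (log2). It was -0.40 with TMM scaling and -0.06 with relative log expression (RLE) scaling, and TPM differences below are to be read against this shift. Among the 3 scalings tried, the genes called higher numbered 617 to 672, and at least 525 of the 541 genes were among them.

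**Figure D1:**
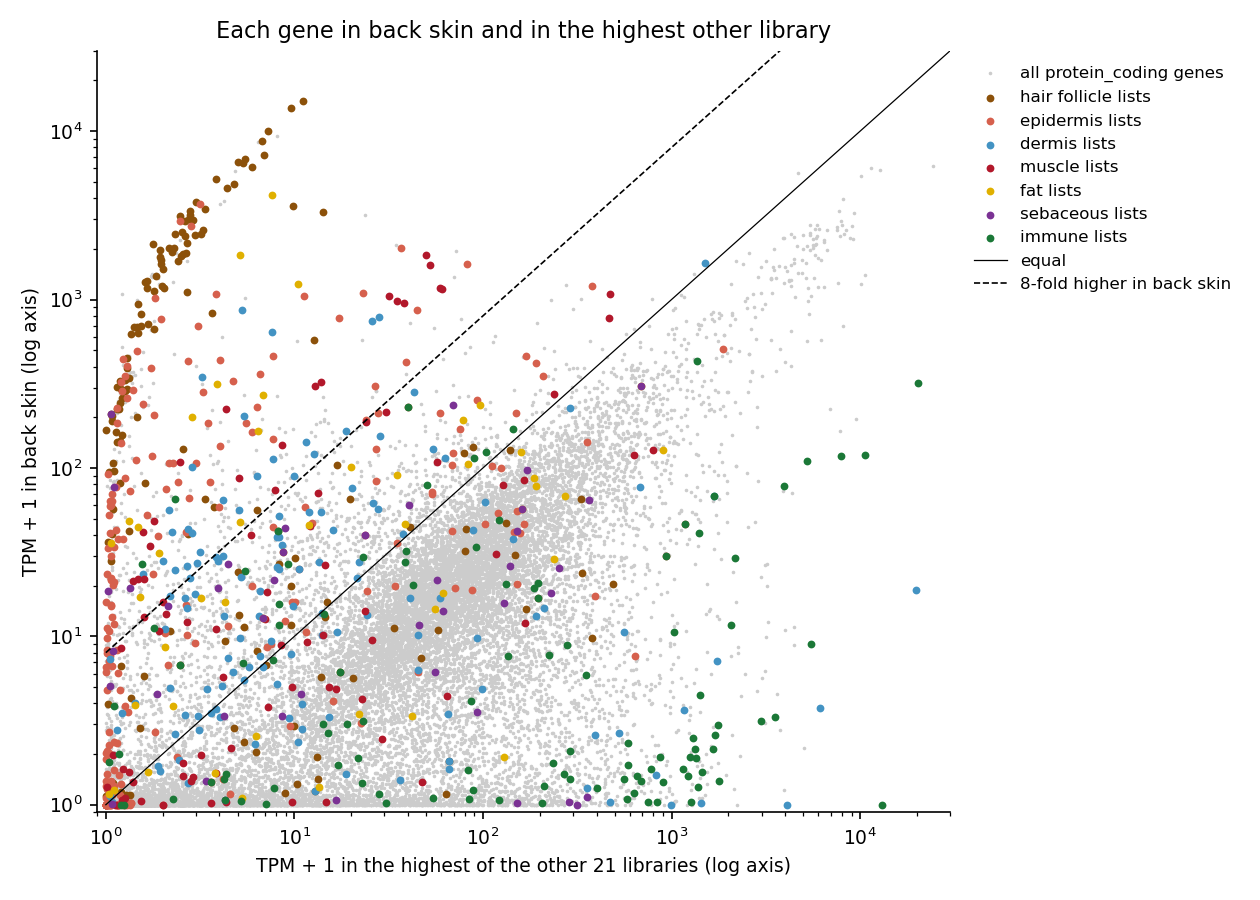
Level of each protein_coding gene in back skin (vertical axis, TPM + 1, log scale) against its level in whichever of the other 21 libraries was highest (horizontal axis, TPM + 1, log scale). Coloured points are genes of the compartment lists, the solid line marks equal levels and the dashed line the 8-fold difference of the rule. Hair shaft and root sheath genes lie at the upper left, with Krtap8-1 at 15067 TPM in back skin and 10.0 TPM in the highest other library, while other follicle genes such as Lef1 (19.3 against 487.2 TPM) lie below the line of equal levels.

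Hair follicle genes took the largest share of the library among the compartments compared. The 156 genes of its 8 lists summed to 19.4% of TPM and 14.8% of counts in back skin, against at most 0.113% of TPM in any other library (Tfhs). By the rule 98 of the 156 genes were higher in back skin. The difference was uneven across the follicle. All 16 hair shaft keratins, 52 of 54 keratin-associated proteins and all 10 inner root sheath genes passed. In contrast, 3 of 15 stem cell genes, 1 of 18 dermal papilla genes and 1 of 15 melanocyte genes did.

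Keratin-associated proteins, the small cysteine-rich or glycine-tyrosine-rich proteins that cross-link keratin in the hair shaft, had the highest summed TPM of the 48 lists. Families outside the lists were not summed. Among the 100 genes of highest TPM in back skin, 39 encoded ribosomal proteins and 21 were Krtap genes. Krtap8-1 was at 15067 TPM in back skin. It was listed at 0 in Putamen and Sensorimotor Cortex and was at 0.29 TPM in Medulla Oblongata. Across the 18 cell libraries its lowest and median levels were 0 and its highest was 10.0 TPM, in B cells aBCD180-activated. Krtap7-1 was at 13801 TPM in back skin, between 0.08 and 0.45 TPM in the brain libraries and at most 8.63 TPM in the cells. These 2 genes had levels above every other named gene of the lists. Krtap22-2 (6573 TPM), Krtap6-5 (6144 TPM), Krtap6-1 (5192 TPM), Krtap15 (4825 TPM) and Krtap3-1 (4589 TPM) followed, each under 5 TPM in every other library. Krtap3-3 (3366 TPM), Krtap9-3 (2990 TPM), Krtap1-5 (2970 TPM), Krtap14 (2450 TPM) and Krtap9-1 (2122 TPM) were also among the 25 genes of largest difference that have a name. Back skin exceeded every other library for each of them, which the rule requires of any gene that passes. Back skin was the highest library for 2275 of all 20674 genes, or 11.0%. The family median was 1216 TPM, and the median of its smallest differences was 9.46 (log2) against -1.50 over all genes. Krtap5-3 at 2.97 TPM and Krtap13 at 0.13 TPM were the members that did not pass. The family summed to 111647 TPM, which was 11.2% of TPM and 4.39% of counts. Its median length was 833 bases against 2389 bases over all genes.

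Many of these members are near copies of each other. Only 31.5% of the keratin-associated protein genes had a whole-number expected count (within 0.005), against 85.4% of all genes detected, so reads were divided among members. The split between single Krtap genes is uncertain, and the sum over the family is less so. The same holds for the hair shaft keratins, of which 18.8% had whole counts. For the Krtap family, whether reads were also shared with gene models without a name was not tested.

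Hair shaft keratins, the filament proteins of cortex and cuticle, ranged from 80.4 TPM (Krt36) to 3790 TPM (Krt33a) in back skin. Krt33a was at 0.03 TPM in Putamen, 0.07 TPM in Medulla Oblongata and 0 in Sensorimotor Cortex, and its highest level in the cells was 2.02 TPM. Krt34 (3451 TPM), Krt81 (3182 TPM), Krt86 (3142 TPM) and Krt31 (1914 TPM) had the same pattern. Krt83, at 3599 TPM in back skin, was the member with the highest level elsewhere, 8.77 TPM in Tfhs. The early matrix and precortex pair Krt85 and Krt35 stood at 1194 and 692.9 TPM. Krt82 and Krt32, keratins of the shaft cuticle, stood at 189.6 and 342.5 TPM.

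The inner root sheath, the sleeve that guides the growing shaft, was as prominent. Krt71 was at 10038 TPM, Krt25 at 7256 TPM and Krt27 at 6792 TPM, and Tchh (trichohyalin, which is cross-linked to harden the sheath) was at 8786 TPM. Tchh was at 3.44, 4.04 and 3.97 TPM in Putamen, Medulla Oblongata and Sensorimotor Cortex, and the cells ranged from 0 through a median of 0.04 to 5.72 TPM. Krt72 (2920 TPM), Krt28 (1969 TPM), Krt73 (1883 TPM) and Krt26 (1630 TPM) were lower. Krt74 was lowest, at 27.2 TPM. The 10 genes took 4.19% of TPM and 6.43% of counts, a larger part of the counts than the keratin-associated proteins.

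In the outer root sheath and companion layer, Krt17 was at 3321 TPM, Krt6a at 937.9 TPM, Krt75 (companion layer) at 684.6 TPM and Krt79 at 207.1 TPM. Tfhs held 13.2 TPM of Krt17, its highest level elsewhere. Krt24 was at 0.19 TPM and was the member of 7 that did not pass.

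Regulators of the shaft were present at lower levels, and 9 of 21 passed. S100a3, a calcium-binding protein of the hair cuticle, was at 6453 TPM in back skin and at most 4.37 TPM elsewhere. Its partner enzyme Padi3, a peptidylarginine deiminase, was at 574.0 TPM, with 11.7 TPM in CH12 B cells clone bc5. The transcription factors Dlx3 (257.5 TPM), Hoxc13 (141.8 TPM), Msx2 (128.0 TPM), Foxn1 (94.7 TPM) and Foxq1 (39.4 TPM) passed, and so did the desmosomal cadherin Dsg4 (161.6 TPM). Factors shared with lymphocytes did not pass. Gata3 was at 126.4 TPM in back skin and 138.4 TPM in the highest T cell library, and Lef1 was at 19.3 against 487.2 TPM.

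Of the follicle stem cell genes, Krt15 was at 833.6 TPM and passed, as did Tbx1 (80.8 TPM) and Foxc1 (57.4 TPM). Cd34 (122.3 TPM), Sox9 (63.95 TPM), Lgr5 (25.7 TPM) and Lhx2 (42.7 TPM) did not, and the brain held up to 77.9, 18.8, 7.28 and 79.8 TPM of them. In the dermal papilla, the mesenchyme at the follicle base, Bmp4 was at 55.1 TPM and was the member that passed. Corin was at 1.86 TPM, Sox2 at 0.16 TPM and Rspo3 at 0.42 TPM. Melanocyte genes were low. Dct was at 9.69 TPM, Mlana at 5.70 TPM, Pmel at 4.63 TPM, Tyrp1 at 3.29 TPM and Tyr, the rate-limiting enzyme of melanin synthesis, at 0.18 TPM. Gpnmb, at 64.1 TPM, passed, and it is also made by macrophages.

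**Figure D2:**
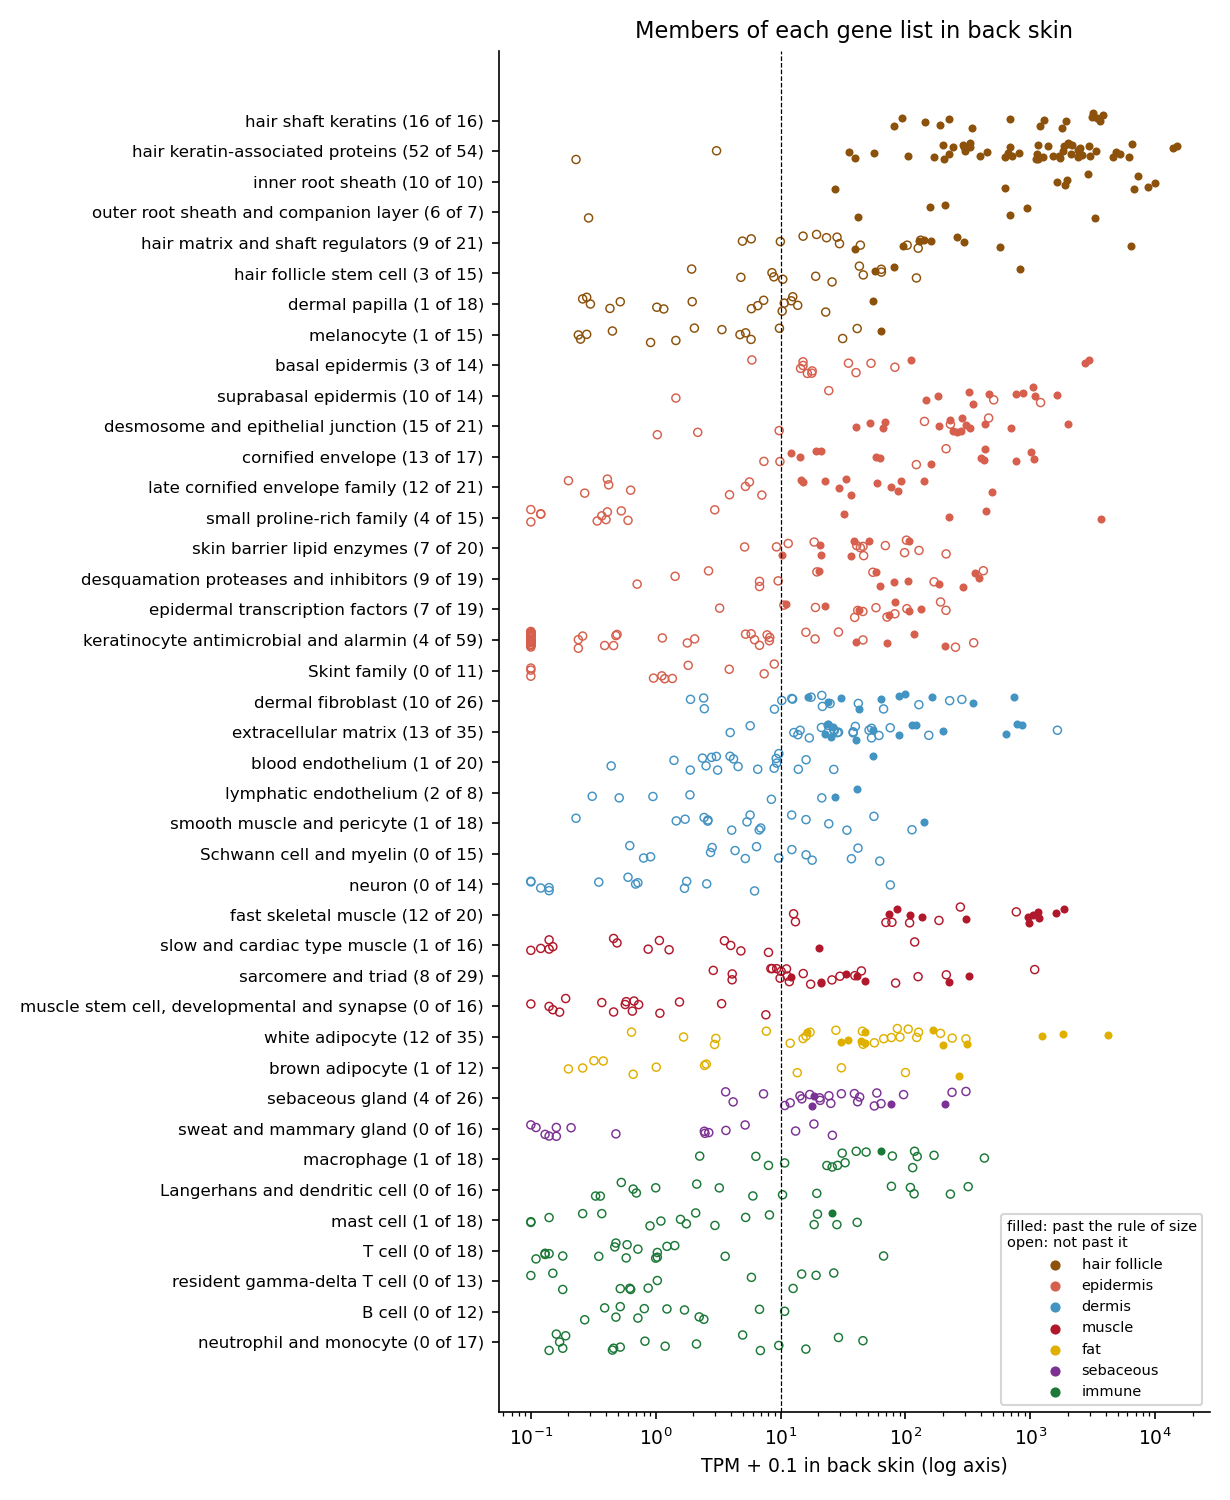
Level of every member of the compartment lists in back skin (horizontal axis, TPM + 0.1, log scale), 1 row per list, with filled points for genes past the rule and the number past it in parentheses. The dashed line marks 10 TPM. All 16 hair shaft keratins are filled and lie at 80.4 TPM or above, while the lists of T cells, B cells and neurons hold no filled point.

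The promoters of several of these genes hold a TATA motif a short distance before the start. The 80 bases from 60 before to 20 after the RefSeq start (GRCm38.p6, the build also called mm10) are shown for 5 abundant hair genes, for Prr9 (a proline-rich gene at 8578 TPM) and for 2 epidermal genes, each on the gene's own strand, here the minus strand. Capitals mark TATAAA where it begins 40 to 20 bases before the start.
Krtap8-1, chr16:89487933-89488012: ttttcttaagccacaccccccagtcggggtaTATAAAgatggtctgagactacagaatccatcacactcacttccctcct
Krtap6-5, chr16:89047880-89047959: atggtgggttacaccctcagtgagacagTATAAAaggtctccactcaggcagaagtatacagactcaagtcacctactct
Krtap3-1, chr11:99566611-99566690: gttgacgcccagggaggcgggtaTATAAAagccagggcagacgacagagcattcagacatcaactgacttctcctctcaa
Krt71, chr15:101743078-101743157: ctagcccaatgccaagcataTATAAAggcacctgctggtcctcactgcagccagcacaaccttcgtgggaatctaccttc
Krt25, chr11:99322932-99323011: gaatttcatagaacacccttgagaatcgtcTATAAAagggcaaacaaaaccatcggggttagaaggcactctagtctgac
Prr9, chr3:92123928-92124007: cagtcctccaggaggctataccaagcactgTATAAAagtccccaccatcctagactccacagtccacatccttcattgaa
Lor, chr3:92083123-92083202: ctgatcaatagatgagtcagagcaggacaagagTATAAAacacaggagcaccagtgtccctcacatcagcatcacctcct
Krt5, chr15:101712886-101712965: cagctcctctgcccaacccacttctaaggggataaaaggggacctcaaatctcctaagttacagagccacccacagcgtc
The motif begins at -29 in Krtap8-1, -32 in Krtap6-5, -37 in Krtap3-1, -40 in Krt71, -30 in Krt25 and Prr9 and -27 in Lor. The window of Krt5 does not hold these letters.

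Over 13407 genes with a single listed start, 3.13% had TATAAA on the gene strand from -40 to -20. Of the 367 such genes past the rule, 86 had it, or 23.4%. These 86 include Krtap genes and neighbouring gene models without a name, many of them near copies that are not independent. Genes with at least 10 TPM in back skin that were not past the rule had it in 66 of 4833, or 1.37%. Among the lists it was present in 29 of 49 keratin-associated proteins, 4 of 9 hair shaft keratins, 5 of 9 inner root sheath genes and 9 of 14 small proline-rich genes. It was present in 2 of 20 late cornified envelope genes, 2 of 14 fast muscle genes and 1 of 16 white adipocyte genes, and in none of 19 matrix genes. Some small lists with at most 1 gene past the rule also held it, in 2 of 6 neuron genes, 3 of 10 mast cell genes, 2 of 7 resident gamma-delta T cell genes and 3 of 14 liver and intestine genes. In the 86 promoters past the rule the median position was -30, and 70 of them, or 81.4%, had it between -33 and -28. The position was much the same over all genes with the motif, with a median of -30 and 324 of 419, or 77.3%, between -33 and -28. The AP-1 motif TGANTCA was searched on both strands of the whole 300 bases. It was in 7.15% of all promoters and 18.8% of those past the rule. Cornified envelope genes had it in 5 of 14 and small proline-rich genes in 9 of 14. Keratin-associated proteins had it in 10 of 49 and inner root sheath genes in 1 of 9. None of 20 late cornified envelope genes or 9 hair shaft keratins had it. A match is a description of the letters and not a binding site.

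**Figure D3:**
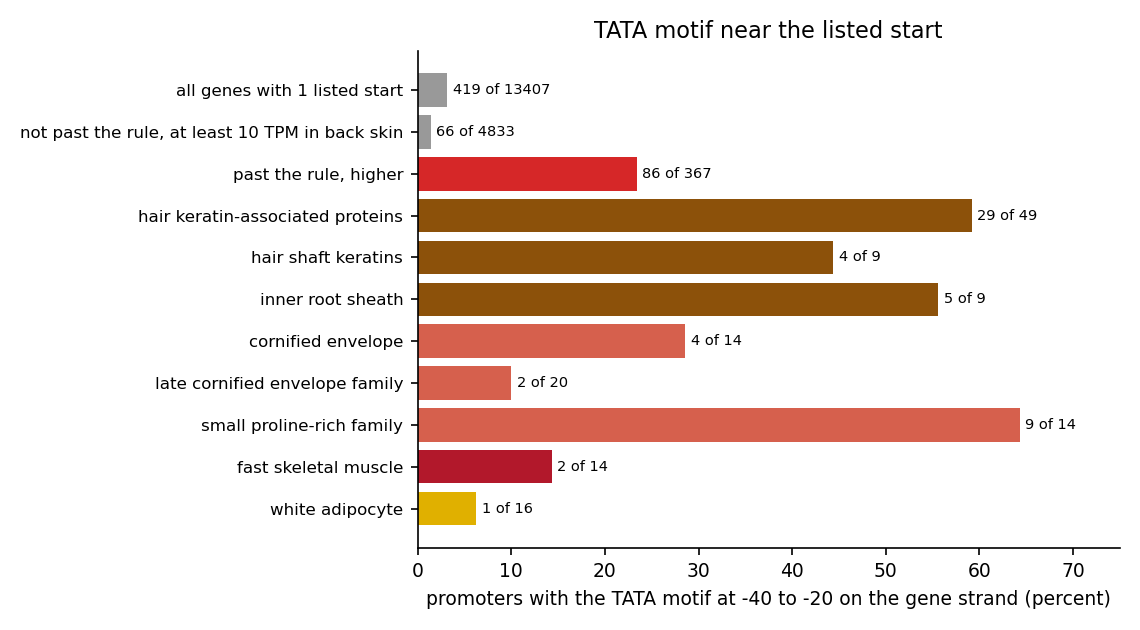
Share of promoters (horizontal axis, percent) with TATAAA on the gene strand from 40 to 20 bases before the listed start, for all genes, for genes by the rule and for 8 lists, with the counts beside each bar. The genes past the rule stand at 23.4% against 3.13% of all genes, and the keratin-associated proteins at 59.2%.

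Some genes past the rule lay close together. Of the 532 that had a RefSeq position, 185, or 34.8%, lay in 11 runs of at least 5 with gaps of no more than 500000 bases. The spans of these runs held 389 of all 20094 genes with a position. Runs were drawn from genes past the rule alone, so their density is partly set by how they were built. The largest run, chr11:98412484-100397839, held 58 genes past the rule among 94, with 22 Krtap genes and 19 type I keratins, and took 9.82% of the TPM of back skin. A run at chr16:88610709-89571183 held 27 of 32 genes and took 8.82% of TPM, from Krtap24-1 to Krtap11-1. The type II keratin run, chr15:101348315-101996624, held 20 of 27 genes (3.22% of TPM). On chr10:77689957-77862638 all 13 genes of a run passed, 10 of them gene models without a name. The epidermal differentiation complex at chr3:92080271-93471980 held 27 of 50 genes, from Lor to Tchhl1, and 7 of 8 genes of the desmosomal cadherin run on chromosome 18 passed. Neighbours in a run include near copies, so they are not independent.

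The epidermis lists held 228 genes and took 3.72% of TPM in back skin, against 0.0712% to 0.512% in the other libraries (basophils highest). By the rule 84 of the 228 were higher. In the basal layer the keratin pair stood out from its neighbours. Krt5 was at 2933 TPM in back skin, listed at 0 in Putamen and Medulla Oblongata, at 0.02 TPM in Sensorimotor Cortex and at most 1.48 TPM in the cells. Krt14, its filament partner, was at 2747 TPM, so the pair had a ratio of 1.07. Col17a1, a collagen of the hemidesmosome, was at 110.1 TPM and passed. The other 11 basal genes did not: Itgb4 was at 34.9 TPM against 33.8 TPM in Medulla Oblongata, Trp63 was at 82.2 against 26.2 TPM in CH12 B cells clone bc5, and Lama5 was at 16.3 against 389.8 TPM in basophils.

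Suprabasal genes passed in 10 of 14. Sfn (stratifin) was at 1628 TPM, with 1.24 to 4.35 TPM in the brain and 3.60, 43.2 and 80.9 TPM as the lowest, median and highest of the cells. Dmkn (1093 TPM), Sbsn (1050 TPM) and Krtdap (769.8 TPM), secreted proteins of the upper epidermis, passed. Krt10 was at 867.6 TPM and its partner Krt1 at 147.2 TPM, a ratio of 0.170 for Krt1 to Krt10. Krt77, another type II keratin, was at 463.8 TPM. Krt2 was at 1.35 TPM, from 88 reads (95% Poisson interval of the count 70.6 to 108.4, which covers counting error only). Ly6d was at 509.2 TPM in back skin and 1876 TPM in B cells LPS+IL21-activated, which also use this surface protein.

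Junction genes passed in 15 of 21. Perp was at 2021 TPM, Dsp (desmoplakin) at 698.2 TPM, Pkp1 at 436.4 TPM and Dsg1a at 285.9 TPM. Each was under 36 TPM in every other library. Tight junction genes Cldn4 and Cldn1 were at 328.5 and 280.4 TPM. Cdh1 (E-cadherin), at 141.9 TPM, was lower than the 355.6 TPM of basophils and did not pass.

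Of the cornified envelope genes 13 of 17 passed. Asprv1, the protease that processes filaggrin, was at 1072 TPM, Cnfn at 1017 TPM, Lor at 773.8 TPM and Cdsn (corneodesmosin) at 429.6 TPM. The brain libraries held 6.77 to 16.2 TPM of Lor. Flg2 was at 62.7 TPM, Casp14 at 14.2 TPM and Hrnr at 12.1 TPM. Tgm1, the transglutaminase that cross-links the envelope, was at 122.2 TPM but also at 68.4 TPM in basophils. Late cornified envelope genes passed in 12 of 21, led by Lce1m at 495.8 TPM. The passing members were Lce1 genes and Lce6a, and the Lce3 genes ranged from 0.10 to 3.80 TPM. Only 4.76% of the family's counts were whole numbers, so the split among members is uncertain. Of the small proline-rich genes, Sprr1a was at 3695 TPM, Sprr4 at 441.9 TPM, Sprr2h at 224.5 TPM and Sprr1b at 32.4 TPM. The other 11 members lay between 0 and 2.87 TPM.

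Among enzymes that make the barrier lipids, Lipm (106.5 TPM), Cers3 (51.3 TPM), Cyp4f39 (38.3 TPM), Pnpla1 (36.7 TPM), Abca12 (20.9 TPM), Sdr9c7 (20.6 TPM) and Lipk (10.2 TPM) passed, 7 of 20. Abca12, a lipid transporter of keratinocytes, was at most 0.06 TPM elsewhere. Ugcg, an enzyme of glucosylceramide synthesis in many cells, did not pass and was at 45.6 TPM in back skin and between 28.4 and 164.3 TPM in the cells. Of the proteases and inhibitors of desquamation, 9 of 19 passed, including Klk7 (390.7 TPM), Klk5 (58.0 TPM) and their inhibitor Spink5 (184.1 TPM). Klk6 was higher in Medulla Oblongata (149.98 TPM) than in back skin (54.8 TPM). Among the transcription factors 7 of 19 passed, with Ovol1 at 133.6 TPM and Zfp750 at 106.4 TPM highest. Klf4 (211.1 TPM) and Grhl1 (190.9 TPM) were just short of the rule, against 26.6 and 23.0 TPM in Tfrs MUT.

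Of 59 antimicrobial and alarmin genes listed, 32 were at 0 in back skin. By the rule 4 passed, beside 2.62% of all genes: S100a7a (206.1 TPM), Defb6 (117.3 TPM), Defb1 (71.6 TPM) and Il1f5 (40.3 TPM). S100a8 and S100a9, alarmins of stressed keratinocytes and of neutrophils, were at 45.6 and 29.0 TPM, against 1172 and 930.5 TPM in basophils. None of the 11 Skint genes reached 10 TPM. Skint10 was highest at 8.80 TPM and was at most 0.01 TPM elsewhere.

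The dermis lists, with vessels and nerve, took 0.891% of TPM in back skin. This was above the 18 cell libraries and below the 3 brain libraries, whose highest share was 4.01% in Medulla Oblongata. The myelin and neuron lists carried 27880 and 9242 TPM as their highest brain sums. Fibroblast genes passed in 10 of 26. Dcn (decorin) was at 741.2 TPM in back skin, at 12.4, 24.8 and 9.45 TPM in Putamen, Medulla Oblongata and Sensorimotor Cortex, and at 0.78 TPM or less in the cells. Dpt (dermatopontin) was at 346.0 TPM and Lum (lumican) at 99.7 TPM. Pdgfra was at 12.4 TPM, below the 20.5 to 23.2 TPM of the brain, where glial precursors use this receptor.

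Matrix genes separated by what they were compared with. Against all 21 libraries 13 of 35 passed, and against the 18 cell libraries alone 26 did. With TMM- or RLE-scaled CPM, which has no length correction, the first count was 21. Col3a1 was at 861.2 TPM, Col1a2 at 781.4 TPM and Col1a1 at 641.6 TPM, the chains of the fibrillar collagens III and I. Medulla Oblongata held 4.30, 27.0 and 6.58 TPM of them. Sparc was at 1648 TPM in back skin but 1495 TPM in Medulla Oblongata. Postn (201.2 TPM), Bgn (120.5 TPM), Aspn (55.3 TPM) and Lox (22.5 TPM) passed, and Eln (elastin) at 38.0 TPM and Fbn1 (fibrillin-1) at 21.1 TPM did so against the cells only.

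Of 20 blood endothelial genes Aqp1 (55.4 TPM) passed, beside 2.62% of all genes. Cdh5 was at 8.78 TPM against 3.40 to 4.15 TPM in the brain, and Cldn5 was at 9.58 against 14.1 to 15.9 TPM. Of 8 lymphatic genes Ccl21a (40.9 TPM) and Lyve1 (27.1 TPM) passed, while Prox1 was at 0.21 TPM.

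Skeletal muscle lists took 1.37% of TPM, against at most 0.228% in another library (Sensorimotor Cortex). Acta1, skeletal actin, was at 1847 TPM in back skin. It was at 48.9, 31.4 and 45.4 TPM in Putamen, Medulla Oblongata and Sensorimotor Cortex, and at 0.04, 0.20 and 4.76 TPM as the lowest, median and highest of the cells. Mylpf (1610 TPM), Tnnt3 (1166 TPM), Tnni2 (1153 TPM), Myl1 (1052 TPM), Ckm (983.6 TPM) and Tnnc2 (955.6 TPM), fast-twitch contractile and energy genes, followed. Of 20 fast muscle genes 12 passed.

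Most slow and cardiac forms were low. The highest was Atp2a2, the calcium pump of slow and cardiac muscle and of many other cells, at 118.4 TPM against 306.9 TPM of the fast form Atp2a1, a ratio of 2.59 for the fast form. The highest level of Atp2a2 was in Sensorimotor Cortex (633.7 TPM). Myh4, the fastest myosin heavy chain, was at 136.2 TPM and Myh1 at 107.9 TPM, while Myh2 was at 12.6 TPM and the slow Myh7 at 0.04 TPM. Tnni2 exceeded its slow counterpart Tnni1 (3.45 TPM) by a factor of 334. Tnnc2 was at 955.6 TPM while Tnnc1 was at 0.36 TPM, from 6 reads. Of 16 slow and cardiac genes Myoz2 (20.2 TPM) passed. None of 16 genes of muscle stem cells, development and the synapse passed. Myod1 was at 0.98 TPM and Pax7 at 0.07 TPM. In the sarcomere list 8 of 29 passed, led by Tpm2 (321.6 TPM) and Mb (myoglobin, 221.4 TPM).

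The brain libraries set the size of most muscle differences. Shares were taken for the 10 fast muscle genes past the rule with at least 100 TPM in back skin. Their median level was 3.33% of the back skin level in Putamen, 1.78% in Medulla Oblongata and 2.24% in Sensorimotor Cortex. The rule itself caps these shares in every other library, because a gene passes only when its level elsewhere is low. B cells aCD40+IL4-activated held 0.602% and no other cell library above 0.0948%. The brain libraries also held Alb, the liver protein albumin, at 128.5 to 152.0 TPM, while back skin was at 1.36 TPM. The part of RNA from other tissue in these values was not tested.

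Fat lists took 1.02% of TPM, against at most 0.165% elsewhere (basophils). Of 35 white adipocyte genes 12 passed. Fabp4, the adipocyte fatty acid carrier, was at 4180 TPM in back skin, between 1.93 and 3.35 TPM in the brain and at 0, 0.13 and 6.61 TPM as the lowest, median and highest of the cells. Cfd (adipsin) was at 1842 TPM, Car3 at 1239 TPM, Cidec at 313.3 TPM and Adipoq (adiponectin) at 198.6 TPM. Lep (leptin, 34.6 TPM), Retn (165.2 TPM) and Plin1 (47.7 TPM) also passed. Lipogenic enzymes did not pass: Fasn was at 56.3 TPM in back skin and 96.2 to 106.8 TPM in the brain, and Scd1 was at 305.0 TPM against 686.0 TPM in splenic B cells. Pparg, the adipocyte master regulator, was at 11.8 TPM and did not pass.

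The brown adipocyte list had 1 of 12 past the rule, Cox8b at 269.2 TPM, a cytochrome oxidase subunit that muscle also makes. Ucp1, the uncoupler that defines brown fat, was at 0.22 TPM from 9 reads, and Adipoq exceeded it by a factor of 903. Cidea was at 30.6 TPM and Prdm16 at 0.10 TPM. Sebaceous glands make Cidea too.

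Sebaceous gland genes took 0.146% of TPM, and 4 of 26 passed. Krt79, which marks the duct as well as the follicle opening, was at 207.1 TPM. Elovl3, a fatty acid elongase of sebum, was at 76.4 TPM in back skin and at most 0.11 TPM elsewhere. Acsm3 (18.3 TPM) and the wax ester synthase Awat1 (17.6 TPM) passed. Awat2 (14.2 TPM) missed the rule with a difference of 2.83, and Dgat2l6 was under 10 TPM at 7.20. Scd3 was at 42.9 TPM against 7.88 TPM in Medulla Oblongata. Fads2, a desaturase that other tissues also use, was at 17.0 TPM in back skin and up to 228.0 TPM in the brain. Of 16 sweat and mammary gland genes none passed. Basophils held milk protein genes, with Csn2 at 356.0 TPM, and back skin held 0.11 TPM of it.

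**Figure D4:**
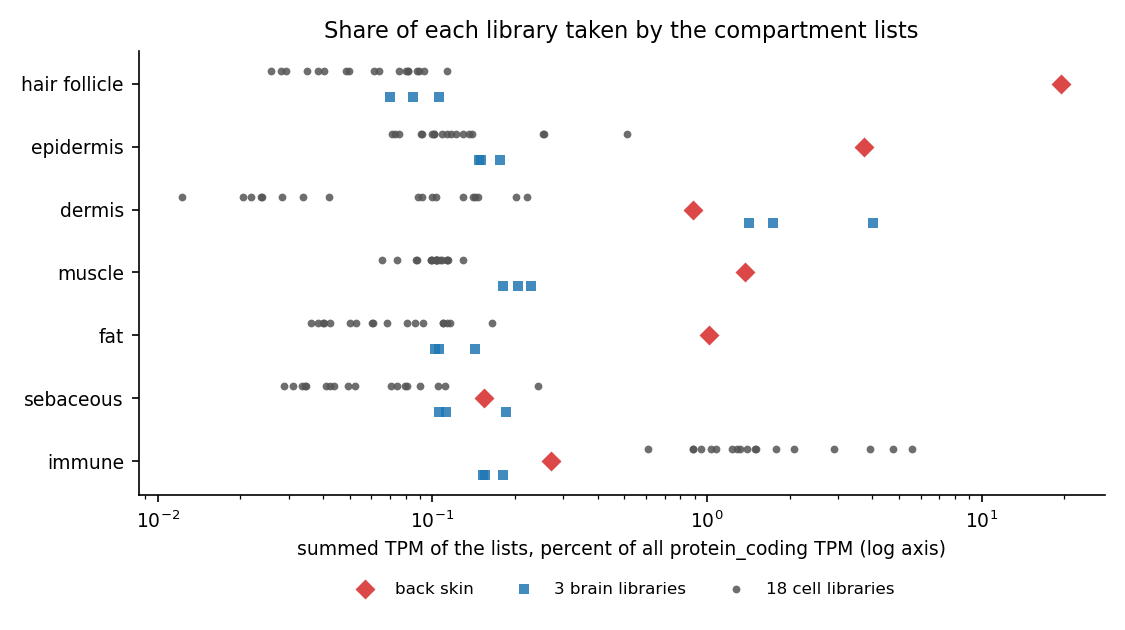
Summed TPM of each compartment's lists as a percent of all protein_coding TPM (horizontal axis, log scale) in back skin (diamonds), 3 brain libraries (squares) and 18 cell libraries (circles). Back skin lies to the right of every other library for hair follicle (19.4%), epidermis (3.72%), muscle (1.37%) and fat (1.02%), and within their range for dermis, sebaceous and immune lists.

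Immune genes were mostly below the cell libraries, which are immune cells themselves. The lists took 0.271% of TPM in back skin against 0.153% to 5.56% elsewhere, and 2 of 110 genes passed. Macrophage genes were the best represented. Folr2, a folate receptor of tissue macrophages, was at 64.2 TPM and at most 1.33 TPM elsewhere. Lyz2 was at 428.6 TPM against 1366 TPM in basophils, and C1qa was at 169.3 TPM against 112.3 to 144.0 TPM in the brain, where microglia make it. Mrc1 (28.5 TPM), Cd163 (25.8 TPM) and Mgl2 (23.4 TPM) were above every other library but not by 8-fold. Against the brain alone 9 of 18 macrophage genes passed. Leaving out basophils raised the count against all libraries from 1 to 5, and leaving out splenic B cells raised it to 3.

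Langerhans cells, the dendritic cells of the epidermis, were represented by Cd207 (langerin) at 10.3 TPM (counting interval 9.27 to 11.3) against at most 0.80 TPM elsewhere, a difference of 2.65. None of the 16 genes of this list passed, and 1 would without splenic B cells. Of 18 mast cell genes 1 passed, 6 were under 1 TPM and the median smallest difference was -3.25. Mcpt4, a mast cell protease, passed at 25.8 TPM in back skin, with at most 0.27 TPM in the brain and 0.56 TPM in basophils. Cma1 (19.7 TPM) and Tpsb2 (18.5 TPM) were at 194.6 and 185.5 TPM in basophils. Mrgprb2, the connective tissue mast cell receptor, was at 2.88 TPM and at most 0.11 TPM elsewhere. The basophil genes Mcpt8 and Fcer1a were at 0 and 0.04 TPM in back skin, and 12997 and 1268 TPM in basophils.

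Lymphocyte genes were low. Among 16 T cell genes that reached 100 TPM in some library, the median back skin level was 0.0706% of the highest library. Thy1, at 66.7 TPM, was the highest share at 3.98%, and fibroblasts and neurons also make it. For 12 B cell genes the median was 0.0733%, and for 10 neuron genes it was 0.0656%. Cd8a rested on 1 read. Of the resident gamma-delta T cell genes none passed, and Il17a was listed at 0. Neutrophil genes such as Ly6g (0.04 TPM) and Elane (0.09 TPM) were low. Hemoglobin Hbb-b1 was at 222.3 TPM, below each of the 3 brain libraries (371.9 to 1093 TPM).

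A faint copy of the back skin pattern was present in 3 B cell cultures. For the 92 genes past the rule with at least 1000 TPM in back skin, the median level was 0.0645% of the back skin level in B cells aBCD180-activated, 0.0433% in LPS+a-d-dextran and 0.0384% in LPS alone. The middle 50% of genes lay between 0.0552% and 0.0815% in the first of these. Across the 92 genes the log10 levels in these cultures followed those of back skin with Pearson r of 0.68, 0.71 and 0.62 (a description across genes, which are not replicates). In the other 18 libraries r was 0.05 or below and the median was at most 0.00414%. The B cells aBCD180-activated library was the highest other library for 112 of the 541 genes and set the smallest difference of many abundant hair genes. Without these 3 libraries Krtap8-1 differed from every other library by 13.51 instead of 10.41, and 64 instead of 26 genes differed by 10 or more. The number past the rule was 542. The origin of these reads was not tested.

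**Figure D5:**
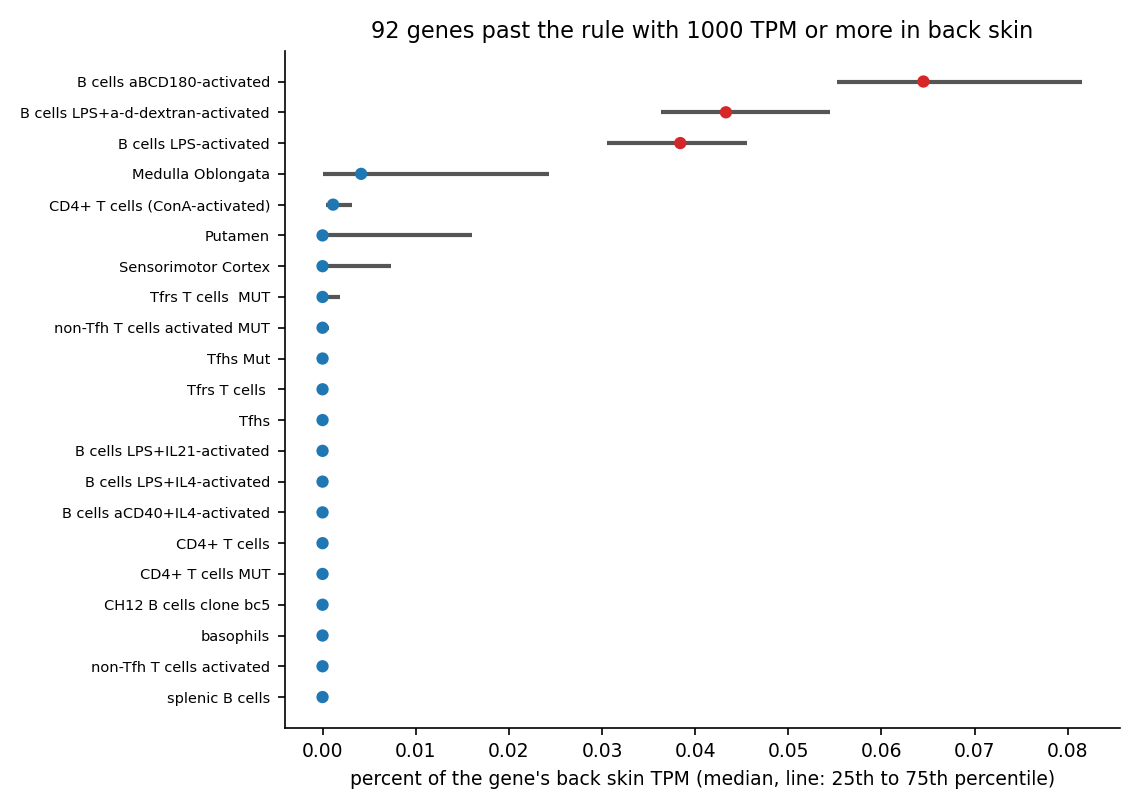
Level of 92 genes in each of the other 21 libraries as a percent of their back skin level (horizontal axis), with the median as a point and the 25th to 75th percentile as a line. Red points are the 3 B cell cultures, at 0.0384% to 0.0645%, and the other libraries lie at 0.00414% or below.

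Of 130 signalling genes known from follicle and skin biology 9 passed, beside 2.62% of all genes. Of 19 Wnt ligands Wnt11 (55.7 TPM) passed, and 4 did against the cells. Wnt4 (49.6 TPM) and Wnt5a (34.0 TPM) were higher in back skin than in any other library by differences of 1.41 and 2.25. Wnt3a was at 7.98 TPM and at most 0.03 TPM elsewhere, under the level minimum. Wnt10a was at 19.8 TPM against 170.8 TPM in B cells aBCD180-activated. Of 37 receptors and regulators 4 passed: Nkd2 (92.9 TPM), Fzd6 (57.0 TPM), Sfrp4 (52.3 TPM) and Fzd5 (46.3 TPM). Without Medulla Oblongata the count was 7. In the hedgehog, EDA and TGF-beta family the BMP ligand Bmp4 and the decoy receptor Bambi (61.5 TPM) passed, 2 of 32, while Shh was at 5.72 TPM against 6.03 TPM in Medulla Oblongata and Edar was at 0.21 TPM. In the FGF and EGF family the receptor gene Erbb2 (48.9 TPM) and the ligand gene Ereg (21.2 TPM) passed, 2 of 42. Without Sensorimotor Cortex 4 did. Fgf5, which ends hair growth, was at 23.2 TPM against 4.04 TPM in Sensorimotor Cortex, a difference of 2.27.

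Proliferation genes were low in this tissue relative to the 18 cell libraries, with a list sum of 278.6 against 677.7 to 6758 TPM. In the brain libraries the sum was 167.1 to 252.7 TPM. None of 24 passed. Mki67 was at 9.05 TPM in back skin, at 4.46, 0.78 and 0.59 TPM in the brain libraries and at 6.23, 71.1 and 252.5 TPM as the lowest, median and highest of the cells. Top2a was at 11.2 TPM, and the cells ranged from 14.8 to 372.5 TPM.

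The 6 genes lower in back skin than in all 21 others are used by both neurons and leukocytes. Cyfip2, a subunit of the actin-regulating WAVE complex, was at 4.48 TPM in back skin, 349.6, 269.2 and 461.7 TPM in the brain regions and 95.6, 151.8 and 247.1 TPM as the lowest, median and highest of the cells. Slc38a1 (1.56 TPM) carries glutamine, and its lowest level elsewhere was 41.8 TPM. Elmo1 was at 2.07 TPM and Rhof at 1.76 TPM, Prkcb (4.42 TPM) is a protein kinase C and Sept6 (2.71 TPM) is a septin. Their levels in the other libraries began at 37.2, 23.0, 59.1 and 30.4 TPM. Rhof and Sept6 lost the call under each of the 3 scalings, and the other 4 genes kept it. The lower call also depends on how the difference was set, with 23 genes at a difference of 2 and 2 at a difference of 4.

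The cell and brain libraries were also compared separately. Against the 18 cell libraries 995 genes (4.81%) were higher in back skin and 82 (0.397%) were lower. Those that were higher than the cells but not than all 21 libraries included Apoe (5633 TPM, up to 4702 TPM in the brain), Sparc, Gja1 (872.6 TPM, up to 299.5 TPM) and Hr (hairless, 441.6 TPM, up to 60.3 TPM). Genes lower than in all cells included leukocyte genes such as Itgal (0.80 TPM, cells 94.3 to 738.3 TPM), Rac2 (4.63 TPM, cells 291.6 to 1119 TPM) and Ikzf1 (2.26 TPM, cells 111.4 to 435.0 TPM). These examples were chosen after their values were seen. Against the 3 brain libraries 766 genes (3.71%) were higher and 1112 (5.38%) were lower. Those higher than the brain but not than all 21 included Anxa1 (1698 TPM, brain at most 3.90 TPM, basophils 2189 TPM), Lgals3 (891.7 TPM, brain at most 12.9 TPM, basophils 1041 TPM) and Hp (haptoglobin, 1009 TPM, brain at most 6.09 TPM, basophils 329.0 TPM).

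Genes nearest the threshold show what it separates. Just inside were Tbx15, a dermal transcription factor, at 16.5 TPM against 1.18 TPM in Sensorimotor Cortex, and Ndufa4l2, at 31.0 against 2.96 TPM. Just outside were Myom1, a protein of the sarcomere, at 15.1 TPM against 1.02 TPM in CH12 B cells clone bc5, and Fbn1 at 21.1 against 1.8 TPM in Medulla Oblongata.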

How the data were processed

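Poly(A) RNA from mouse cells and tissues was sequenced for 50 cycles, per the labels' protocols, whose extraction text describes cultured cells and names no step for skin. Per the submitters' processing notes the authors used CASAVA 1.8.2, STAR, RSEM and bedtools with build mm10; order and settings are not given in the sources used here. Each deposited table gives expected counts and TPM per gene, as estimated by the authors with RSEM per the file headers; both were used as deposited, and the FPKM column was not. Of 24911 rows the 20674 of type protein_coding were kept.

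Log2(TPM + 1) in back skin was compared with each of 21 libraries by a rule of size (difference of at least 3, at least 10 TPM), in Python 3.11.15 with pandas 2.3.3; no test was possible with 1 library per group. TMM and RLE factors came from edgeR 4.0.16 on the expected counts, rounded to whole numbers. Depth was 30.81 to 147.9 M counts per library, and intervals of single counts are exact Poisson intervals at 95% that cover counting error only. Promoters and gene positions were taken from RefSeq tables for GRCm38.p6. The text names list members, the 25 genes of largest difference with a name, and genes in the lower call. Members and lists were chosen with earlier results of these data known. Alternatives are given in the closing section.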

Additional observations from a re-analysis of the deposited data

How the results depend on the processing

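No paired analysis was possible because each group was 1 library and the rule is no test. The 541 genes higher in back skin numbered 1645 when compared with the median of the other 21 libraries, and 541 to 578 when 1 library was left out. The 6 lower genes numbered 11 with a pseudocount of 0.1, 23 at a log2 difference of 2, 2 at a difference of 4 and 419 against the median, and 6 to 8 when 1 library was left out. The other settings gave 379 to 729 higher genes and 5 to 9 lower genes. Alternatives for the separate comparisons, and one without the 3 B cell cultures that held a trace of back skin genes, were added after seeing the data. Without these cultures 542 genes were higher and 7 lower. Lower than every cell library were 180 genes at a difference of 2 and 31 at a difference of 4. Higher than every brain library were 502 genes at a difference of 4, and lower were 1727 at 2 and 672 at 4. The other settings kept these counts within 1.5 times the reported value. Each shift follows from how its setting is built (another threshold, pseudocount or comparator). The number of genes past the rule also shifted within lists. It moved by a factor of more than 1.5 in 5 lists with TMM scaling and 7 with RLE scaling. With TPM rescaled without the 100 highest back skin genes it moved in 7 lists. It moved in 11 lists at a difference of 2, 11 at a difference of 4 and 30 against the median. Leaving out 1 library moved at most 4 lists (Medulla Oblongata). As an example, the matrix list gave 21 instead of 13 genes with TMM- or RLE-scaled CPM. Rhof and Sept6 lost the lower call under the 3 scalings. Back skin rests on 1 library, so no spread between animals is known, and reads shared by near-identical Krtap and Lce genes limit values of single members.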

Other observations

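Outside the lists, 285 genes passed the rule, and 41 of the 541 are gene models without a name. Of the latter, 13 lay in the chromosome 11 run, 10 in the chromosome 10 run and 5 in the chromosome 16 run. Among named genes outside the lists, Prr9, a proline-rich gene of the epidermal differentiation complex, was highest at 8578 TPM in back skin, listed at 0 in the 3 brain libraries and at most 5.41 TPM in the cells. Lgals7, the epithelial galectin-7, was at 3170 TPM, Psors1c2 at 2366 TPM, Crct1 at 1753 TPM, the stratified-epithelium metallothionein Mt4 at 1418 TPM and the orphan receptor Gprc5d at 1375 TPM. The gap junction gene Gjb2 was at 674.5 TPM, and Gsdma, a gasdermin of the epidermis, was at 274.2 TPM. Mup10 and Mup2, genes for major urinary proteins, were at 719.5 and 193.2 TPM, and the brain held 15.4 to 40.2 TPM of Mup10. These genes were chosen after their values were seen.

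Some genes known from macrophages and dendritic cells also lay outside the lists. Retnla was at 315.3 TPM in back skin and at most 2.23 TPM elsewhere, and the chemokine Ccl8 was at 261.6 TPM and at most 0.70 TPM. On chromosome 8, between 3655770 and 4237470, 4 C-type lectin genes passed together: Cd209g (24.6 TPM), Cd209f (22.7 TPM), Cd209d (20.7 TPM) and Cd209b (12.9 TPM). Their highest level elsewhere was 0.28 TPM. Cd209a, of the dendritic cell list, was at 5.90 TPM against 4.33 TPM in splenic B cells.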
